A study of Mus musculus with 20 samples.

Results

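Fresh organoids of PyMT mammary tumors, sequenced at day 0 of culture, were compared with cryosections of PyMT mammary tumors. The comparison took 6 of the 20 libraries of the series, chosen by their titles: 3 libraries of PyMT organoids at day 0 and 3 of PyMT tumor sections. All mice were of the FVB strain and carried MMTV-PyMT, a transgene in which the mouse mammary tumor virus promoter drives the polyoma virus middle T antigen mainly in mammary epithelium. The day 0 organoids were lysed as soon as they had been prepared from the tumor and were never cultured, whereas each section was a slice of whole tumor, 30 µm thick, that was not dissociated. RNA was extracted with TRIzol and polyadenylated RNA was sequenced in both groups. The 6 day PyMT organoids, used below as a second point of comparison, came from the same kind of tumor and were grown in Matrigel with the growth factor FGF2; they make up 5 libraries, of which 3 are titled day 6 and 2 carry no day in their titles (undated). The animals' ages and the number of animals that gave the 6 samples are not given. Neither is whether an organoid sample and a section came from the same tumor. The p-values therefore measure only spread between libraries, which the main fit pools over all groups of the series.

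Making organoids from a tumor usually means mincing it, digesting the matrix with collagenase, and spinning the fragments so that epithelial clusters are kept and single cells, many of them stromal, are washed away. Immediate early genes are genes that cells transcribe within minutes of a stimulus without first making new protein. They include the Fos and Jun families, which pair through leucine zippers to form the transcription factor AP-1, and the Egr and Klf zinc finger factors, and their transcripts are short-lived because they carry AU-rich elements bound by decay factors such as Zfp36. Enzymatic dissociation of tissue is well known to switch on these genes and the heat shock chaperones. A whole tumor section also holds what lies around the epithelium: fibroblasts and their collagen, macrophages, vessels, fat, blood and, at times, muscle.

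The day 0 libraries held 18245081, 18897233 and 27602155 reads counted on genes, and the sections 33728349, 17478357 and 25228506. Across genes, log2 levels of any pair of day 0 libraries correlated at 0.980 to 0.985 and of any pair of sections at 0.964 to 0.979 (Pearson's r, in which genes are not independent replicates). The epithelial label held in both groups: Epcam, a surface protein of epithelial cells, stood at 1116, 954 and 1220 CPM (read counts scaled to TMM-adjusted library size) in day 0 organoids and at 897, 1046 and 1302 CPM in sections. One library outside the comparison went against its label. The library labelled PyMT organoids day 6 replicate 3 correlated at 0.9947 with tumor section replicate 3, the highest value of any pair among the PyMT libraries, but at 0.925 and 0.893 with day 6 replicates 1 and 2. It enters the comparison with 6 day organoids and, together with the other groups, the shared estimate of spread. The main counts of called genes are therefore given with and without it, and differences of single genes mostly with it.

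**Figure D1:**
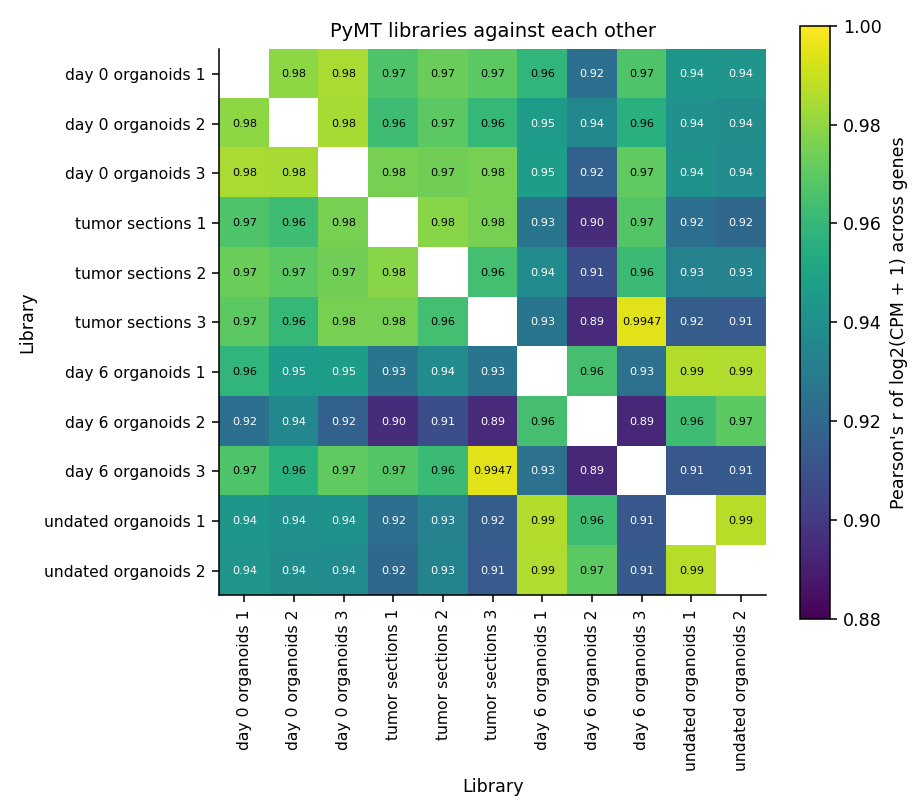
Pearson's r of log2(CPM + 1) across genes between the 11 PyMT libraries, with libraries named along both axes and colour and number giving r. The library labelled day 6 organoids 3 stands at 0.9947 with tumor section 3 and at 0.93 or below with the other 6 day organoids.

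Few genes passed between fresh organoids and sections when all groups shared 1 estimate of spread, and nearly all of those were higher in the organoids. In 1 edgeR quasi-likelihood fit over all 20 libraries, 80 of 18698 genes tested were higher in day 0 organoids at a Benjamini-Hochberg adjusted p under 0.05 (0.428% of the genes tested) and 3 were lower (0.016%). At an unadjusted p under 0.05 the counts were 539 higher and 760 lower. The median difference over all genes tested was -0.016 log2 units. All 80 genes had every day 0 library above every section, as did 7.6% of all genes tested. Fitted on the 6 libraries alone, whose common dispersion was 0.096 against 0.193 over the 20 libraries, 109 of 15810 genes were higher (0.689%) and 82 lower (0.519%), and 70 of the 80 genes were called again. Without the 2 libraries that stood apart from their groups (the day 6 library above and a section of another tumor model, Neu-NT), 170 genes were higher (0.914%), all 80 among them, and 73 lower. Leaving out 1 of the 6 libraries at a time brought the count of higher genes to between 47 (without section replicate 1) and 73 (without day 0 replicate 1), and 45 of the 80 genes were called in every one of these 6 fits.

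**Figure D2:**
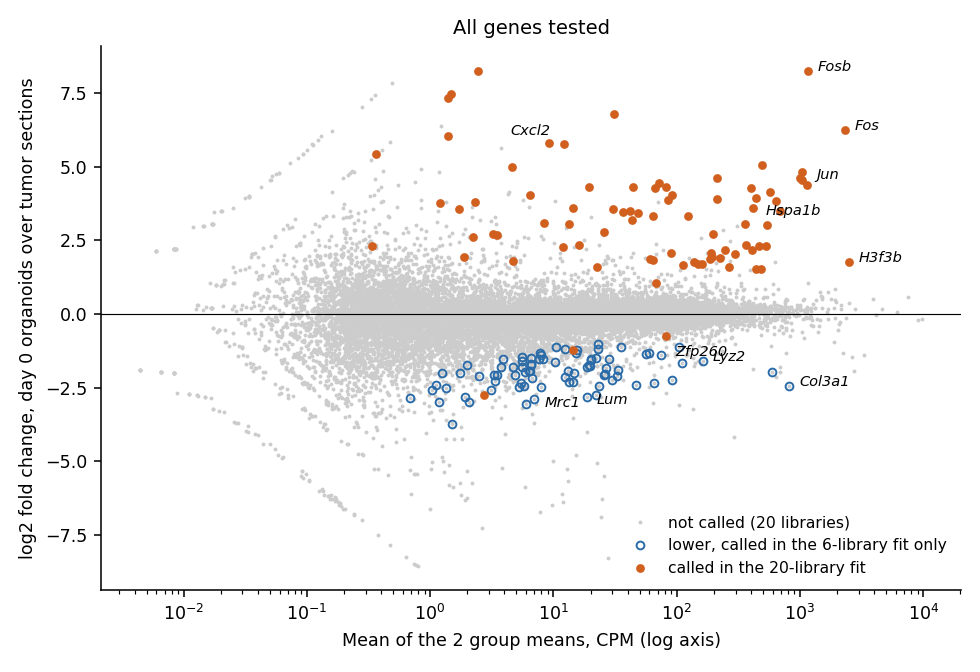
Log2 fold change of day 0 organoids over tumor sections (vertical axis) against the mean of both group means in CPM (horizontal log axis), 1 point per gene tested. Orange points were called in the fit of 20 libraries, 80 of them above 0 and 3 below; open blue circles are genes called lower only in the fit of the 6 libraries.

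The AP-1 genes had the highest median of the 26 lists, and Fosb had the largest difference of the genes named by rule. Of the 10 AP-1 genes listed, 7 were higher in day 0 organoids, beside 0.428% of all genes tested, and none lower. Their median was 4.27 log2 units beside -0.016 over all genes tested. All 26 lists were chosen with earlier results of these data known, so the shares here and below describe the lists and test nothing. For the AP-1 genes the level in each library was added up as well. Their summed level was 8883, 13695 and 13226 CPM in day 0 organoids against 561, 458 and 570 CPM in sections.

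Fosb, a Fos family partner of the Jun proteins (chr7:19302696-19310051, minus strand), stood at 1647, 2953 and 2365 CPM in day 0 organoids and at 9.82, 6.63 and 6.14 CPM in sections. It differed by 8.26 ± 0.51 log2 units (SE; adjusted p = 4.53e-07, edgeR quasi-likelihood test), and no other library of the series went above 10.04 CPM. Fos, the first partner of AP-1 to be transcribed after a stimulus (chr12:85473890-85477273, plus strand), had 3685, 4825 and 5238 CPM in day 0 organoids and 76.7, 55.6 and 50.3 CPM in sections. Its difference was 6.24 ± 0.59 log2 units (adjusted p = 3.38e-05). Fos was thus already present in sections at a level several times that of Fosb, and per kilobase of exon the day 0 means were 1948 CPM for Fos and 372 CPM for Fosb, against 25.9 and 1.21 CPM in sections.

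Each of the 3 Jun genes, the other side of the AP-1 pair, was higher too. Jun had 1607, 2421 and 2483 CPM in day 0 organoids and 115, 93.2 and 101 CPM in sections (4.40 ± 0.36 log2 units; adjusted p = 9.34e-06). Junb had 716, 1224 and 1307 CPM in day 0 organoids and 77.4, 57.1 and 48.6 CPM in sections (4.15 ± 0.48; adjusted p = 0.000313). Jund, the member that resting cells express most steadily, had the smallest difference of the 7, with 326, 516 and 598 CPM in day 0 organoids and 112, 90.1 and 145 CPM in sections (2.05 ± 0.33; adjusted p = 0.00504). No library of one group overlapped the other for any of the 3 genes, and replicate 1 was the lowest day 0 library for each.

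Atf3, a stress-induced partner of Jun, had 671, 1316 and 883 CPM in day 0 organoids and 23.3, 20.2 and 43.2 CPM in sections (5.05 ± 0.85 log2 units; adjusted p = 0.00767). Its call was lost without section replicate 1 or 2 (largest adjusted p = 0.0834). Maff, a small Maf protein that binds DNA without an activation domain of its own, had 119, 191 and 101 CPM in day 0 organoids and 5.55, 4.52 and 8.55 CPM in sections (4.46 ± 0.58; adjusted p = 0.000669). The remaining 3 members did not pass: Fosl1 differed by 2.07 (adjusted p = 0.164), Fosl2 by 0.47 (0.856) and Batf, known mainly from lymphocytes, by -1.70 (0.821). Fosl1 did not overlap between the groups, with 3.69, 6.82 and 6.14 CPM in day 0 organoids and 1.07, 1.51 and 1.39 CPM in sections, and it passed in the fit of 6 libraries (adjusted p = 0.0452).

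**Figure D3:**
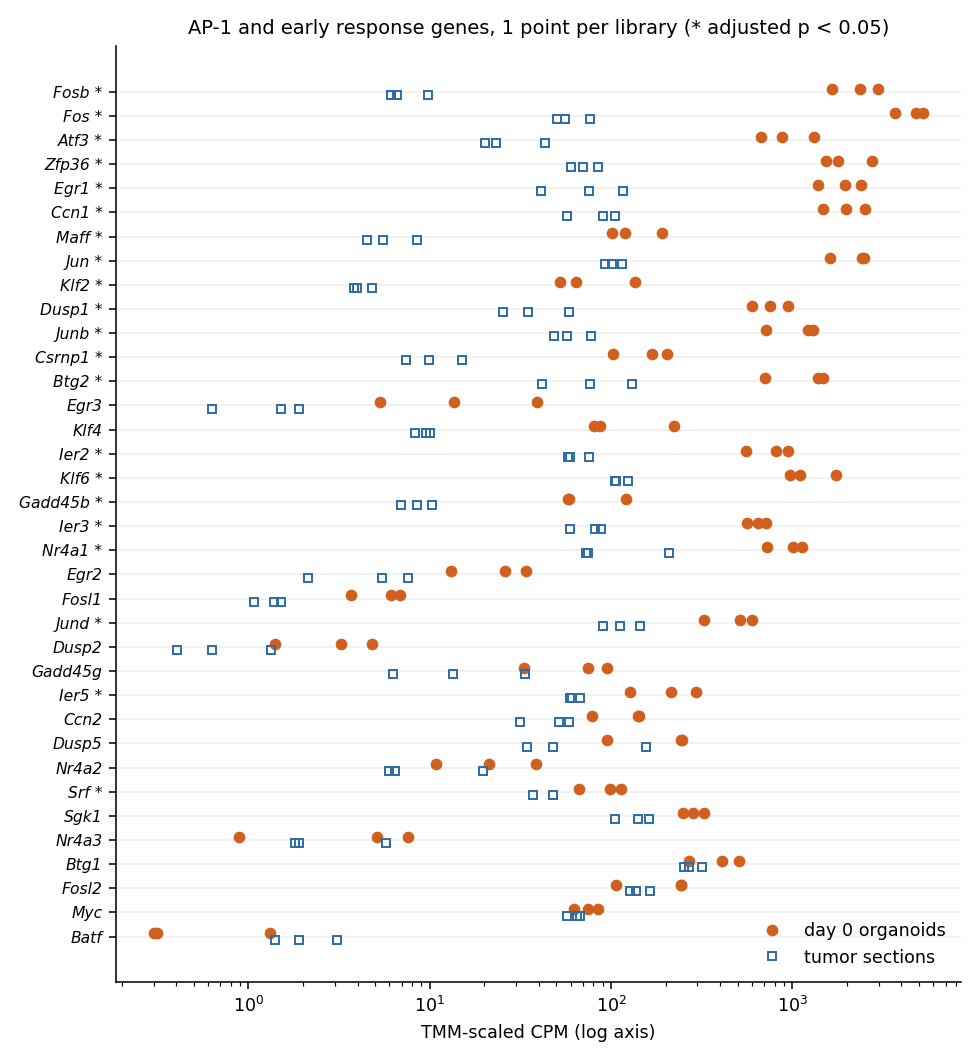
Level of each AP-1 and early response gene in each library, in TMM-scaled CPM on a log axis, with filled circles for day 0 organoids, open squares for tumor sections and an asterisk for an adjusted p under 0.05. The 21 genes with an asterisk have all day 0 libraries to the right of all sections, from Fosb at the top to Srf at 1.07 log2 units, while Myc and Fosl2 overlap.

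Of the 26 listed early response factors and feedback genes, 14 were higher in day 0 organoids (beside 0.428% of all genes tested) and none lower, and all 26 had a difference above 0, as did 8945 of 18698 genes tested (median 3.04 log2 units). Their summed level was 9892, 14432 and 16149 CPM in day 0 organoids against 1453, 1362 and 1720 CPM in sections. Myc, often counted among early genes, was nearly level: it differed by 0.22 ± 0.37 log2 units (adjusted p = 0.981), so the rise did not take in every growth-responsive gene.

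Among the transcription factors, Egr1, a zinc finger protein that responds to serum and mechanical stress, had 1378, 1960 and 2401 CPM in day 0 organoids and 116, 76.1 and 41.2 CPM in sections (4.62 ± 0.55 log2 units; adjusted p = 0.000363). Klf2, best known as a flow-responsive factor of endothelium, had 52.1, 135 and 64.0 CPM in day 0 organoids and 4.83, 3.97 and 3.80 CPM in sections (4.31 ± 0.53; adjusted p = 0.000426). Klf6 had 968, 1738 and 1107 CPM in day 0 organoids and 107, 105 and 124 CPM in sections (3.51 ± 0.32; adjusted p = 2.38e-05). Ier2, an early gene of nuclear localisation, had 555, 815 and 950 CPM in day 0 organoids and 75.8, 59.5 and 57.7 CPM in sections (3.59 ± 0.31; adjusted p = 1.45e-05). Among Egr1, Klf2, Klf6 and Ier2, only Egr1 spread in sections by more than 2 times between replicates, and its lowest day 0 library was still above its highest section. Srf, the factor that switches on many early genes through CArG boxes, was the smallest called rise of the list at 1.07 ± 0.22 log2 units (adjusted p = 0.0442), and it stayed called in only 1 of the 6 fits with a library left out. Ccn1, a secreted matrix-bound protein that YAP and Srf control, had 1470, 1978 and 2504 CPM in day 0 organoids and 106, 90 and 57 CPM in sections (4.56 ± 0.51; adjusted p = 0.00023).

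Genes known to damp early responses were also higher in day 0 organoids. Zfp36 (tristetraprolin), which binds AU-rich elements and speeds the decay of Fos, Tnf and related transcripts, had 1526, 1789 and 2738 CPM in day 0 organoids and 60.5, 69.7 and 84.4 CPM in sections (4.82 ± 0.35 log2 units; adjusted p = 2.63e-06). Dusp1, a phosphatase that inactivates MAP kinases, had 596, 758 and 952 CPM in day 0 organoids and 34.9, 25.5 and 58.3 CPM in sections (4.28 ± 0.54; adjusted p = 0.00056). Socs3, which blocks cytokine receptor signalling through JAK and STAT proteins, had 294, 570 and 360 CPM in day 0 organoids and 21.5, 19.9 and 8.32 CPM in sections (4.62 ± 0.61; adjusted p = 0.000836). These 3 inhibitors act on RNA, kinases and receptors, and the groups did not overlap for any of them. Btg2, an antiproliferative protein that recruits the deadenylase complex, differed by 3.85 ± 0.54 log2 units (adjusted p = 0.00157). Errfi1, an inhibitor of the EGF receptor, had 660, 933 and 1068 CPM in day 0 organoids and 189, 180 and 165 CPM in sections (2.32 ± 0.26; adjusted p = 0.00023). Ppp1r15a, the phosphatase subunit that reverses eIF2 alpha phosphorylation, had 161, 256 and 253 CPM in day 0 organoids and 22.6, 13.6 and 29.9 CPM in sections (3.34 ± 0.31; adjusted p = 2.91e-05).

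Early genes are known to be switched on through CArG boxes (bound by Srf) and cAMP response elements (CRE, bound by CREB and ATF proteins). The promoters of 5 of these genes are shown, each of which holds such a motif or a CRE half-site. Several other raised genes, named below, hold none. Each sequence is the 250 bases before the annotated transcription start, 5′ to 3′ on the gene's strand, from RefSeq (GRCm38.p6); capitals mark a CRE (TGACGTCA), its half-site (TGACGT) or a CArG box.
Fos, chr12:85473640-85473889, plus strand: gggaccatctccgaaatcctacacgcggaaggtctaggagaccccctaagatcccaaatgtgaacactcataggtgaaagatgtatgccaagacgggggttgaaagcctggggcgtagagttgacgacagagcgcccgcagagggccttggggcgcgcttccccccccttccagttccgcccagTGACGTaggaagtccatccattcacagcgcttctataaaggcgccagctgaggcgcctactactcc
Dusp1, chr17:26508473-26508722, minus strand: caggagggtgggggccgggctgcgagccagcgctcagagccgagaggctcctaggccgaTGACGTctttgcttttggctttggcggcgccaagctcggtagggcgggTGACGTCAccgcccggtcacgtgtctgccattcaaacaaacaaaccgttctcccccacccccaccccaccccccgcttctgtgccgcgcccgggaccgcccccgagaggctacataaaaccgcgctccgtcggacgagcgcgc
Btg2, chr1:134079156-134079405, minus strand: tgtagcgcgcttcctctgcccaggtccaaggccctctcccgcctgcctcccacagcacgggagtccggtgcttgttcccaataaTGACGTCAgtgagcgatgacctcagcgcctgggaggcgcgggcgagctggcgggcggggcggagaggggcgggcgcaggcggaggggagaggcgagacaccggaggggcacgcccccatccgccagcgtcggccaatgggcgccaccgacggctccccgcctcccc
Zfp36, chr7:28379229-28379478, minus strand: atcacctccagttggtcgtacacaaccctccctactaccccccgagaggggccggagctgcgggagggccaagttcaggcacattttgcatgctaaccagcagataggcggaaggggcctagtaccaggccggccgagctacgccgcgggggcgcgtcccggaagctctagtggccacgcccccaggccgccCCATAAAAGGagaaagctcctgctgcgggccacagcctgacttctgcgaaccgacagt
Srf, chr17:46556163-46556412, minus strand: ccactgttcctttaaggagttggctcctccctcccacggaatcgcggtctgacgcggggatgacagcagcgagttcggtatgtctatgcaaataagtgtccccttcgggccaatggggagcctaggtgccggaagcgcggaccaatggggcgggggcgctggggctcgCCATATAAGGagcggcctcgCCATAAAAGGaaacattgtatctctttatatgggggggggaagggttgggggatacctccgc

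The Fos window held 1 CRE half-site, which began 66 bases before the start, and the Dusp1 window held 1 full CRE and 1 further half-site. The Btg2 window held 1 full CRE, 166 bases before the start, Zfp36 held 1 CArG box and Srf, whose product binds that motif, held 2. Both strands were searched; a full CRE reads the same on both strands and contains the half-site on each. Over the same 250 bases, 1.62% of 27025 genes in the promoter table had a CArG box, 1.77% a full CRE and 7.29% a half-site; over the 12739 genes tested here that had a promoter in it, the shares were 1.43, 2.8 and 10.4%. Of the 26 early response genes 21 had a promoter in the table; 4 of these (19.0%) had a CArG box (Dusp5, Egr2, Srf and Zfp36), 2 (9.52%) a full CRE and 7 (33.3%) a half-site. Of the 9 AP-1 genes in the table, 4 (44.4%) had a half-site, 1 (11.1%), Maff, a full CRE, and none a CArG box in this window. Of the 80 genes higher in day 0 organoids, 53 had a promoter in the table. Among these, 2 (3.77%) had a CArG box, 6 (11.3%) a full CRE and 14 (26.4%) a half-site. Fosb, Jun, Junb, Jund, Klf2, Klf6 and Socs3 had none of these motifs in the window. These shares describe letters in a window near the start and were not tested.

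Of 24 listed NF-kB targets, cytokines and chemokines, 8 were higher in day 0 organoids, beside 0.428% of all genes tested, and none lower (median 0.97 log2 units). The NF-kB subunits and several cytokines did not move with them: Nfkb1 differed by -0.07 and Relb by -0.20 log2 units, Csf1 by 0.22 and Ccl2 by 0.50, none of them called. Among the secreted ligands, Cxcl2, a chemokine that attracts neutrophils, had 24.8, 27.3 and 20.2 CPM in day 0 organoids and 0.454, 0.0502 and 0.792 CPM in sections (5.76 ± 0.86 log2 units; adjusted p = 0.00263). Tnf had 37.1, 22.7 and 51.0 CPM in day 0 organoids and 2.14, 1.31 and 2.10 CPM in sections (4.31 ± 0.70; adjusted p = 0.00568), a call lost without section replicate 1 or 2 (largest adjusted p = 0.067). Both ligands were scarce in every section. Cxcl1 had 61.6, 41.0 and 101 CPM in day 0 organoids and 8.73, 6.33 and 3.17 CPM in sections (3.48 ± 0.72; adjusted p = 0.0444), and its call was lost in each of the 6 fits with a library left out. Lif, a cytokine of the interleukin 6 family, differed by 3.42 ± 0.58 (adjusted p = 0.00807); its call was lost without section replicate 2 or 3. Il6 itself was 13.9-fold higher and did not pass (1.25, 3.74 and 2.59 CPM in day 0 organoids and 0.24, 0.251 and 0.0396 CPM in sections; adjusted p = 0.063). Hbegf, an EGF family ligand outside this list, had 103, 194 and 81.8 CPM in day 0 organoids and 6.86, 5.07 and 7.56 CPM in sections (4.27 ± 0.61; adjusted p = 0.00157).

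Of the regulators of NF-kB on the list, 3 were called, and they do not act alike. Nfkbia, which holds NF-kB in the cytoplasm, had 335, 338 and 542 CPM in day 0 organoids and 70.8, 75.4 and 125 CPM in sections (2.17 ± 0.29 log2 units; adjusted p = 0.00103). Nfkbiz, a nuclear relative that mainly helps NF-kB switch on a subset of its targets, had 316, 428 and 442 CPM in day 0 organoids and 27.1, 30.0 and 22.6 CPM in sections (3.90 ± 0.48; adjusted p = 0.000427). Tnfaip3 (A20), a ubiquitin-editing enzyme that damps Tnf signalling, had 81.9, 128 and 138 CPM in day 0 organoids and 13.7, 9.50 and 11.4 CPM in sections (3.33 ± 0.39; adjusted p = 0.000313). All 3 remained called with any 1 of the 6 libraries left out. Beside these cytokine values, 20 macrophage markers summed to 532, 637 and 745 CPM in day 0 organoids and to 1482, 1095 and 1031 CPM in sections, and their part in the result was not tested.

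Heat shock chaperones were uneven among the day 0 libraries, and replicate 1 was the lowest of them for each of the 3 called genes. Of 16 listed chaperones 3 were higher (beside 0.428% of all genes tested) and none lower, all 16 differed by more than 0, as did 8945 of 18698 genes tested, and the median was 0.83 log2 units. Hspa1a and Hspa1b, the inducible Hsp70 genes, had 48.3, 252 and 168 CPM and 268, 1407 and 814 CPM in day 0 organoids, and 4.16, 14.7 and 4.83 CPM and 31.6, 97.6 and 32.8 CPM in sections. The pair are near-identical copies, so how reads divide between them is uncertain; their differences were 4.31 ± 0.57 (adjusted p = 0.000858) and 3.94 ± 0.54 (adjusted p = 0.00103). Dnajb1, the Hsp40 partner of Hsp70, had 137, 615 and 272 CPM in day 0 organoids and 38.1, 70.3 and 47.1 CPM in sections (2.72 ± 0.40; adjusted p = 0.00197). Replicate 2 was the highest library of its group for all 3 genes in both groups. In the fit of 6 libraries none of the 16 passed (adjusted p = 0.059, 0.0706 and 0.0869 for these 3), and 5 had an unadjusted p under 0.05; without the 2 libraries that stood apart, 4 passed, among them Hspb1 (adjusted p = 0.00337). Hsph1, with 97.1, 598 and 107 CPM in day 0 organoids and 71.8, 168 and 82.1 CPM in sections, rested on replicate 2: its difference of 1.32 log2 units was -0.05 without that day 0 library. The endoplasmic reticulum branch of the stress response was close to level. Of its 16 listed genes only Ppp1r15a, given above, was called; Hspa5, the main chaperone of that compartment, differed by 0.75 and Xbp1 by -0.19 log2 units, neither of them called.

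Of the 80 higher genes, 33 were on one of the lists and 47 on none. H3f3b, which encodes the replication-independent histone H3.3 and has processed copies that may share its reads, was the most abundant of those outside the lists, with 5126, 3601 and 2837 CPM in day 0 organoids and 1108, 921 and 1333 CPM in sections (1.78 ± 0.20 log2 units; adjusted p = 0.00023). Mcl1, a short-lived relative of Bcl2 that protects from apoptosis, had 452, 856 and 653 CPM in day 0 organoids and 225, 232 and 227 CPM in sections (1.52 ± 0.23; adjusted p = 0.00326). Both genes, singled out after their values were seen, remained called with any 1 library left out. The 63 protein coding genes among the 80 were short: 42 of them (66.7%) spanned under 10 kb of genome, against 3908 of 15306 protein coding genes tested (25.5%), and the median gene body was 4461 bp against 23396 bp. Their median exon length was 2937 bp against 4275 bp. Genes called lower in the fit of 6 libraries were short as well. Of their 70 protein coding genes, 31 (44.3%) spanned under 10 kb, with a median gene body of 12058 bp and a median exon length of 2787 bp.

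The other 17 genes were noncoding, microRNA precursors or predicted transcripts. Most of them overlap a protein coding gene, and since the strand setting of the counting is not given, their reads cannot be told apart from those of the partner. Gm43361, a predicted transcript within Atp2a2, had 11, 31.4 and 11.5 CPM in day 0 organoids and 0.427, 0.352 and 0.158 CPM in sections (5.82 ± 0.77 log2 units; adjusted p = 0.000836). Gm12867 is antisense to the glucose transporter gene Slc2a1 and differed by 4.05 ± 0.73 (adjusted p = 0.0127), a call lost in 4 of the 6 fits with a library left out (adjusted p up to 0.145).

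Gm37352 overlaps no protein coding gene and lies 7629 bp from the nearest, Zswim4, on chromosome 8 (chr8:84200869-84203049, plus strand). It had 46.5, 82.7 and 53.6 CPM in day 0 organoids and 0.667, 0.402 and 0.554 CPM in sections (6.79 ± 0.79 log2 units; adjusted p = 0.000313). The precursors of miR-23a and miR-27a lie downstream on the same strand, at chr8:84208518-84208592 and chr8:84208672-84208758, and were also called. Mir23a had 326 reads over the 3 day 0 libraries and 1 over the 3 sections, with an exact 95% interval of the ratio from 71.4 to 15876 that covers counting error only (adjusted p = 0.00686); its call was lost without any 1 of the sections (adjusted p up to 0.0763). Mir27a had 200 reads in day 0 organoids and 1 in sections, with an interval from 43.6 to 9759 (adjusted p = 0.00178). Mirlet7c-2, from another cluster, had 1.82, 2.17 and 2.66 CPM in day 0 organoids and 0.0534, 0.201 and 0.238 CPM in sections (3.78 ± 0.76; adjusted p = 0.0337), and its call was lost in each fit with a library left out. Libraries of polyadenylated RNA read the long primary transcript across a precursor, not the mature microRNA, so these values say nothing of mature levels. The mature strands that the 3 precursors encode are shown because their seeds (bases 2 to 8, in capitals) differ, so the 3 belong to separate seed families (RefSeq, GRCm38.p6):
mmu-miR-23a-3p, chr8:84208563-84208583, plus strand: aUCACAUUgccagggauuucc
mmu-miR-27a-3p, chr8:84208727-84208747, plus strand: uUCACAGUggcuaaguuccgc
mmu-let-7c-5p, chr15:85706616-85706637, plus strand: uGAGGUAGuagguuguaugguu

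Few genes passed as lower in the fit of 20 libraries, and none was a stromal marker. Zfp719, a zinc finger protein gene, had 8.26, 8.19 and 9.34 CPM in day 0 organoids and 23.4, 19.1 and 17.8 CPM in sections (-1.23 ± 0.26 log2 units; adjusted p = 0.0476). Zfp260, another zinc finger protein gene, had 62.8, 56.7 and 63.3 CPM in day 0 organoids and 110.7, 104.7 and 92.9 CPM in sections (-0.75 ± 0.15; adjusted p = 0.0296). The transcript 2310034G01Rik had 0.572, 0.96 and 0.568 CPM in day 0 organoids and 4.62, 7.24 and 2.38 CPM in sections (-2.76 ± 0.52; adjusted p = 0.0225). The groups did not overlap for any of the 3, but each call was lost in at least 5 of the 6 fits with a library left out (adjusted p up to 0.256, 0.214 and 0.153).

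Most fibroblast genes had lower levels in the organoids, and a minority passed a test on the 6 libraries alone. Of 19 fibroblast and pericyte markers tested, 15 had every day 0 library below every section, where 10.6% of all genes tested did, and the median was -1.74 log2 units. Their summed level was 373, 529 and 709 CPM in day 0 organoids against 1925, 1637 and 1323 CPM in sections. None passed in the fit of 20 libraries; in the fit of 6, 6 of 18 were lower and none higher, beside 0.519% of all genes lower. Leaving out 1 of the 6 libraries gave 4 to 7 of 18, with 4 in every case but section replicate 3, while the count over all genes moved between 6 (without day 0 replicate 2) and 121 (without section replicate 3). In bulk RNA, fewer cells of a type and less RNA per cell cannot be told apart.

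Lum, a collagen-binding proteoglycan, had 14.6, 12.2 and 17.7 CPM in day 0 organoids and 74.5, 79.0 and 82.4 CPM in sections (-2.41 log2 units). Its adjusted p was 0.832 over 20 libraries and 0.00202 over 6. Over all 17 libraries other than day 0, Lum ran from 0.956 to 165 CPM, and in the 6 day organoids Lum was at 80.2 CPM in day 6 replicate 3 but at 0.98 and 0.96 CPM in replicates 1 and 2; with 18 libraries its adjusted p was 0.375. Dcn (decorin) had 20.9, 21.4 and 23.1 CPM in day 0 organoids and 134, 91.4 and 104 CPM in sections (-2.33; adjusted p = 0.784 over 20 libraries and 0.00207 over 6). Dpt, a matrix protein of resting fibroblasts, had 5.20, 3.64 and 5.04 CPM in day 0 organoids and 38.0, 31.9 and 28.4 CPM in sections (-2.82; adjusted p = 0.77 and 0.00265). Postn (periostin), a matrix protein of activated fibroblasts, had 151, 241 and 321 CPM in day 0 organoids and 1028, 1040 and 750 CPM in sections (-1.98; adjusted p = 0.782 and 0.0334). Fibroblast transcripts were therefore reduced but still present in every day 0 library. The pericyte markers of the same list did not share the drop: Rgs5 had 45.5, 64.9 and 78.2 CPM in day 0 organoids and 38.2, 54.8 and 74.7 CPM in sections (0.17 log2 units), Cspg4 differed by 0.12 and Pdgfrb by -0.19, none of them called in any fit named here.

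The collagens divided in a similar way. Of 26 collagen and matrix genes, 16 had every day 0 library below every section (beside 10.6% of all genes tested) and the median was -1.39 log2 units; 2 were lower in the fit of 6 libraries (beside 0.519% of all genes) and none in the fit of 20. That count of 2 was 0 without any 1 of the day 0 libraries, 1 without section replicate 1 and 9 without section replicate 2. Col3a1, a fibrillar collagen, had 226, 238 and 299 CPM in day 0 organoids and 2094, 894 and 1166 CPM in sections (-2.44; adjusted p = 0.832 over 20 libraries and 0.0242 over 6). Col1a1 had 219, 281 and 330 CPM in day 0 organoids and 1773, 402 and 1103 CPM in sections (-1.98; adjusted p = 0.149 over 6 libraries). For both genes section replicate 2 was the lowest section, and it was still above every day 0 library. The chains of basement membrane collagen, which vessels and epithelium both make, lay near or above 0: Col4a1 differed by 0.32, Col4a2 by 0.27 and Col18a1 by 0.40 log2 units, none of them called.

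Most macrophage genes were lower in level too. Of 20 macrophage and myeloid markers 19 were below 0, with a median of -1.29 log2 units, and 10 were lower in the fit of 6 libraries (beside 0.519% of all genes), 1 in the fit of 18 and none in the fit of 20. With 1 of the 6 libraries left out, between 0 (without day 0 replicate 2) and 10 (without section replicate 3) of them passed; the other counts were 2 and 3 without day 0 replicate 1 and 3, and 5 and 4 without section replicate 1 and 2. Lyz2 (lysozyme) had 74.7, 70.7 and 94.7 CPM in day 0 organoids and 262, 213 and 258 CPM in sections (-1.61; adjusted p = 0.832 over 20 libraries and 0.00786 over 6). C1qa, a complement chain that tissue macrophages make, had 38.5, 38.6 and 46.7 CPM in day 0 organoids and 127, 99.1 and 97.4 CPM in sections (-1.39; adjusted p = 0.0121 over 6). Mrc1, the mannose receptor, had the largest difference of the list, with 5.98, 5.31 and 5.79 CPM in day 0 organoids and 66.7, 28.0 and 20.2 CPM in sections (-2.75; adjusted p = 0.0485 over 6). The exception was Cd14, an inducible coreceptor for bacterial lipopolysaccharide, at 0.45 log2 units and not called. T, B and NK cell markers were scarce in both groups, with a summed level over 18 genes of 9.25, 8.29 and 5.89 CPM in day 0 organoids and 27, 13 and 7.01 CPM in sections; none was called among the 16 tested over 20 libraries or the 5 tested over 6.

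Endothelial genes did not follow the fibroblasts and macrophages. The summed level of 18 markers was 233, 292 and 481 CPM in day 0 organoids and 317, 237 and 369 CPM in sections, and the median difference was 0.06 log2 units. Cdh5, the cadherin of endothelial junctions, had 30.0, 38.3 and 61.0 CPM in day 0 organoids and 36.5, 21.6 and 51.1 CPM in sections (0.24 ± 1.26 log2 units over 20 libraries, adjusted p = 1; 0.24 ± 0.36 over 6). The groups overlapped for it, as for all but 1 of the 18 markers, and none of the 18 was called in either fit. In the 6 day organoids other than day 6 replicate 3, the same sum was 46.2 to 100 CPM.

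Fat, muscle and blood genes were low in every day 0 library and uneven among sections. Adipocyte markers summed to 33.4, 65.4 and 68.1 CPM over 12 genes in day 0 organoids and to 148, 324 and 82.9 CPM in sections. Adipoq (adiponectin) had 0, 0.0505 and 0.0355 CPM in day 0 organoids and 4.08, 11.7 and 0 CPM in sections, so that section replicate 3 held none either. Myh4, a heavy chain of fast skeletal muscle, reached 165 CPM in section replicate 2 and at most 0.455 CPM in any other of the 6 libraries; without that section its difference turned to 2.39 log2 units. Hbb-bs, an adult beta globin with a near-identical copy that may share its reads, had 14.7, 17.1 and 10.5 CPM in day 0 organoids and 64.3, 59.8 and 34.1 CPM in sections (-1.90; adjusted p = 0.903 over 20 libraries and 0.0376 over 6). No gene of these lists was called over 20 libraries by edgeR, while DESeq2 called 1 lower in each list (beside 67 of 18698 genes). The blood and muscle list had 3 of 6 genes lower over 6 libraries (beside 0.519% of all genes). That count was 3 without section replicate 3 and 0 without any other 1 of the 6 libraries. The adipocyte list had 0 of 5 tested genes lower over 6 libraries. Without section replicate 3 it had 6 of 11 (beside 121 of 15968 genes), and without any other library 0.

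**Figure D4:**
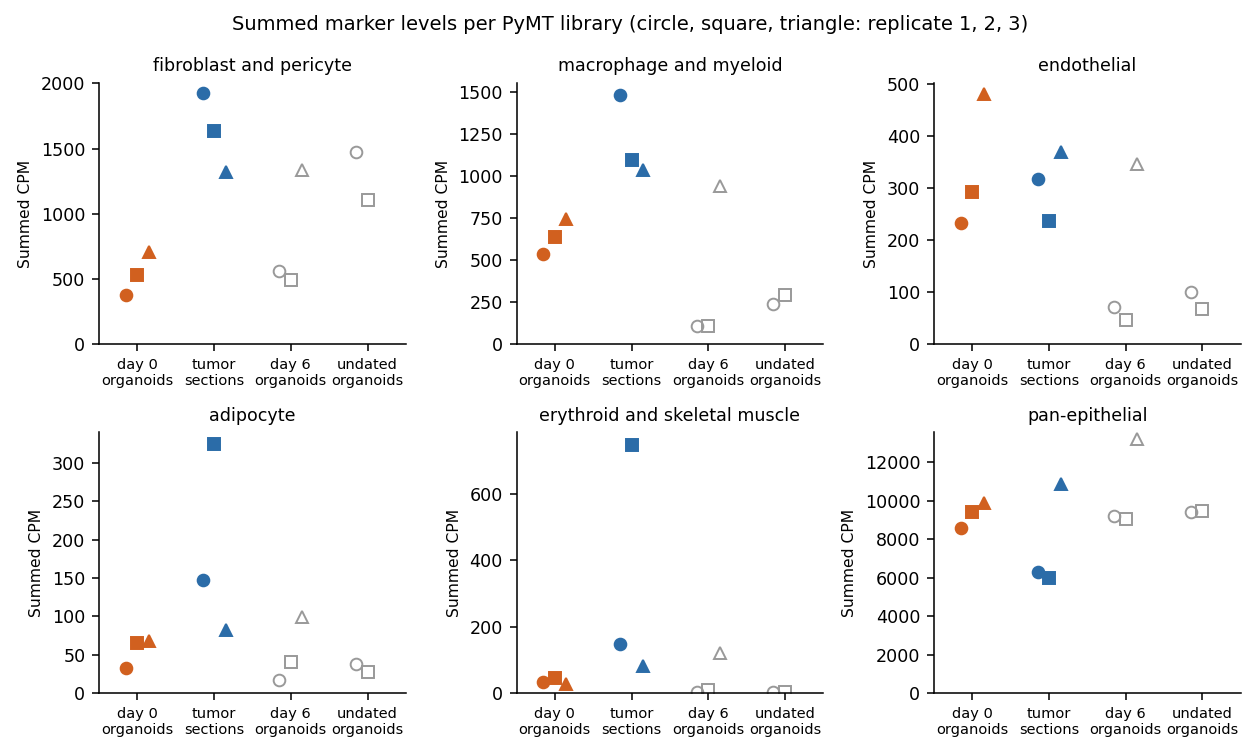
Summed CPM of the markers of 6 cell types in each PyMT library, with day 0 organoids in orange, tumor sections in blue, 6 day organoids in open grey, and circle, square and triangle for replicates 1, 2 and 3. Fibroblast and macrophage sums lie lower in every day 0 library than in every section, endothelial sums overlap, and the day 6 triangle lies above every other 6 day library in 5 of the 6 panels, all but the fibroblast one.

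Epithelial genes moved little in the median. Pan-epithelial markers summed to 8587, 9448 and 9886 CPM over 20 genes in day 0 organoids and to 6314, 6009 and 10854 CPM in sections, with a median difference of 0.23 log2 units. Luminal markers had a median of 0.05 and basal and myoepithelial markers of 0.37, and none of the 3 lists had a call over 20 libraries. Of the 20 pan-epithelial markers, 5 had every day 0 library above every section, beside 7.6% of all genes tested. In the fit of 6 libraries 2 were higher, beside 0.689% of all genes, and 0 to 4 with 1 library left out. Cldn4, a tight junction claudin, had 301, 624 and 330 CPM in day 0 organoids and 63.3, 38.4 and 72.3 CPM in sections (2.85 log2 units; adjusted p = 0.213 over 20 libraries) and passed over 6 (adjusted p = 0.0204).

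The remaining lists held no call over 20 libraries. Hypoxia and glycolysis genes had a median of 0.66 log2 units, with 20 of 22 above 0, and cholesterol and fatty acid synthesis genes 0.34. With 18 libraries 3 of the 22 were higher (beside 0.914% of all genes tested), and with 6 libraries 1 was (beside 0.689%). Of 21 cholesterol and fatty acid synthesis genes, 1 was higher in each of these fits, and neither list had a lower gene. Transcripts of the mitochondrial genome were all above 0 (13 of 13, median 0.74) and made up 2.79, 2.47 and 1.88% of gene counts in day 0 organoids and 1.29, 1.88 and 1.74% in sections. MHC class II and antigen presentation genes were all below 0 (14 of 14, median -0.62). Cell cycle genes (0.11), ribosomal proteins (0.17), interferon response genes (-0.07), milk and gland proteins (-0.04) and Schwann cell genes (0.12) lay close to the median of all genes. Among matrix proteases and inhibitors (median -0.75), Adamts1, a secreted protease that cleaves proteoglycans, had 110, 118 and 102 CPM in day 0 organoids and 27.5, 27.8 and 24.5 CPM in sections (2.04 log2 units; adjusted p = 0.483 over 20 libraries and 0.00149 over 6). EMT regulators had a median of -0.74.

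**Figure D5:**
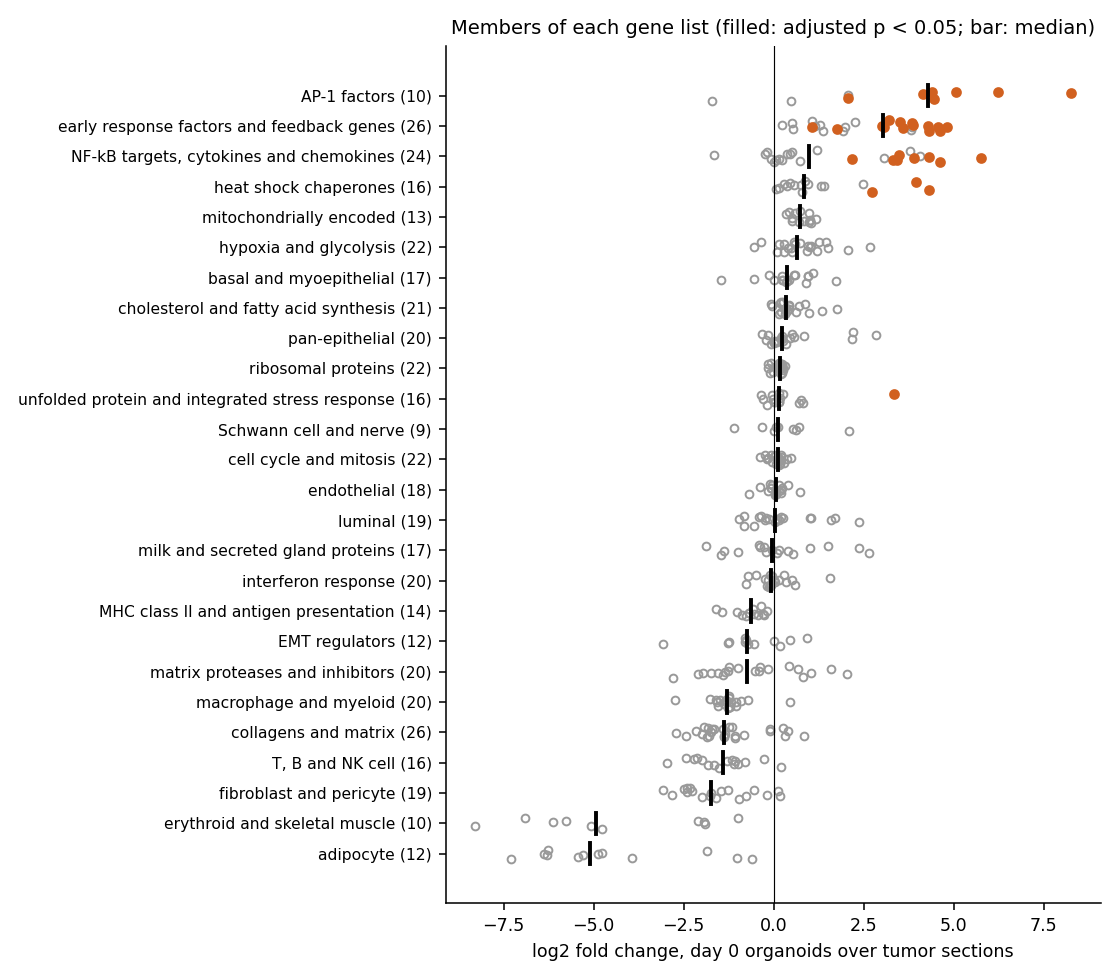
Log2 fold change of day 0 organoids over tumor sections for every tested member of each gene list, 1 circle per gene, filled where the adjusted p was under 0.05 in the fit of 20 libraries, with a black bar at the list's median and the number tested in brackets. Filled circles stand in the AP-1, early response, NF-kB, heat shock and stress response lists, and the fat, blood and muscle, fibroblast and lymphocyte lists have the lowest medians.

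The 6 day PyMT organoids show what the same genes did after culture. Both comparisons use the day 0 libraries, so their values are set side by side and no agreement between them is tested. Day 0 organoids were higher than 6 day organoids for 771 of 18698 genes (4.12%) and lower for 766; without the 2 libraries that stood apart, 3051 were higher (16.4%) and 2650 lower. Deviations from the group mean correlated more between day 0 and day 6 libraries of the same replicate number than of different numbers. Whether libraries of the same number came from the same tumor is not given. With only the libraries compared, 59 genes were higher and 7 lower. With the replicate number as a block, undated libraries included, the counts were 43 and 5. Of the 80 genes higher than in sections, 71 were also higher than in 6 day organoids, 72 without the libraries that stood apart, and none was lower.

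For Fosb the difference from sections was 8.26 log2 units and from 6 day organoids 8.74 (adjusted p = 2.21e-08), and for Fos 6.24 and 5.22 (adjusted p = 1.64e-05). For Dusp1 the values were 4.28 and 5.56, and for Atf3 5.05 and 6.35. The differences from 6 day organoids given here for single genes include day 6 replicate 3. Without the 2 libraries that stood apart they were 8.67 for Fosb, 4.98 for Fos and 7.02 for Atf3. These 4 early genes were thus low in the 6 day organoids as well as in sections. Some called genes were not: Ier3, an early gene linked to survival, differed by 3.06 from sections but by 0.12 from 6 day organoids (adjusted p = 0.889), Ddit4, an inhibitor of mTORC1 that responds to stress and low oxygen, by 2.35 and 0.01 (adjusted p = 0.993), and Cxcl1 by 3.48 and 0.50 (adjusted p = 0.612). The calls against sections held in 3 of the 6 fits with a library left out for Ier3, in 1 for Ddit4 and in none for Cxcl1. The differences between these pairs of values were not tested.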

How the data were processed

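The deposited values are raw read counts per gene (htseq-count layout), with a table of Ensembl gene IDs for each library. The submitters' processing notes name the tools STAR, HTSeq, CASAVA, FastQC and DESeq2 (no versions given) and the mm10 build. The annotation release and strand setting are not given in the sources used here. Entries for reads that match no gene (9.28 to 12.3% of uniquely aligned reads in the 6 libraries) or several genes stayed out of the library sizes. Gene names and positions come from GENCODE release 21 for mouse, which matched 44585 of 45318 IDs, so overlaps follow that release.

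Groups follow the titles. edgeR 4.0.16 (R 4.3.3; filterByExpr, TMM, robust quasi-likelihood test, 13 residual degrees of freedom) was fitted on all 20 libraries with 1 mean per group and no covariate. The SE was taken as the size of the log2 difference over the root of its F statistic. CPM are TMM-scaled. DESeq2 1.42.0 was an alternative, as were no filter, DESeq2 size factors, only the libraries compared, a replicate block, 18 libraries and each library left out; leaving libraries out of the fit of 6 was chosen after seeing the data. The members and the 26 gene lists were chosen with earlier results of these data known. Genes named are the 12 largest rises and falls among calls that reach 10 CPM in the higher group and do not overlap, up to 4 predicted or noncoding ones, members of the lists, and others chosen after their values were seen, Mir23a, Mir27a, Mirlet7c-2, 2310034G01Rik, Hbegf and Ddit4 among them. Between day 0 and day 6 organoids, deviations of libraries with the same number correlated at 0.287, 0.428 and 0.317 across genes. A pairing by number thus comes from the data and not from the labels, and it includes the day 6 library that went against its label. The correlations are not independent, because deviations are taken from the group mean. The replicate block also took in the undated libraries, whose numbers were not checked in this way. Promoters and microRNAs come from RefSeq tables (GRCm38.p6). The test was checked on simulated data with known changes. These were drawn with the same dispersion for every gene and library, so the check does not cover spread that differs between groups. Results for some genes are not reported here.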

Additional observations from a re-analysis of the deposited data

How the results depend on the processing

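The count of genes higher in day 0 organoids than in sections was 80, and 73 without a filter, 83 with DESeq2 size factors, 152 with DESeq2, 170 with 18 libraries, 109 with only the 6 libraries and 68 with the replicate block; the count lower was 3, and 1, 3, 67, 73, 82 and 17 under the same settings in that order. Deviations of day 0 organoids and sections with the same replicate number correlated at -0.089, 0.173 and 0.143. Those with different numbers correlated at -0.214 to 0.08. Whether samples of the same number came from 1 tumor is not given, so what the block removes is not known. Leaving out 1 library gave 47 to 73 higher and 0 to 2 lower over 20 libraries, and 38 to 93 higher and 6 to 121 lower over 6, where the lower count was 6 without day 0 replicate 2, 13 without day 0 replicate 1 or 3, 15 without section replicate 1, 28 without section replicate 2 and 121 without section replicate 3. Of the 82 genes lower over 6 libraries, 2 were called over 20, 15 over 18 and 9 by DESeq2. Against 6 day organoids the 771 higher and 766 lower genes became 446 and 450 without a filter, 1483 and 1480 with DESeq2, 3051 and 2650 with 18 libraries, 59 and 7 with only the libraries compared and 43 and 5 with the replicate block; leaving out 1 library gave 165 to 2605 higher and 67 to 1922 lower, with both upper values without day 6 replicate 3. With 1 library left out, directions turned for Hsph1 (-0.05 without day 0 replicate 2; range to 1.82), Rgs5 (-0.033 without section replicate 1 and -0.018 without day 0 replicate 3; range to 0.44), Cdh5 (-0.091 without day 0 replicate 3; range to 0.57) and Myh4 (2.39 without section replicate 2; range from -10.19). The causes were not tested. The fit of 20 libraries shares 1 spread across groups, and 3 against 3 libraries limit what smaller differences can be resolved.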

Other observations

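Zinc finger genes of the Zfp series, counted after Zfp719 and Zfp260 had been seen among the 3 lower genes, leaned downward in day 0 organoids. Of 338 tested, 249 were below 0, against 9707 of 18698 genes in all, and their median was -0.28 log2 units beside -0.016. All 3 day 0 libraries lay below all 3 sections for 90 of them (26.6%, beside 10.6% of all genes tested), and above for 14. In the fit of 20 libraries 2 were called lower, beside 0.016% of all genes tested. In that fit 1, Zfp36, which is a decay factor and not a Krüppel-type zinc finger, was called higher. With 18 libraries 73 of 18591 genes were lower, and 14 of these carried such a name. Over the 6 libraries alone 82 of 15810 genes were lower (0.519%), and 3 of these carried such a name.

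For some single genes replicate 2 stood apart in both groups. Whether the samples of that number came from the same tumor is not given. The secretory protein gene Pip had 179, 0.15 and 355 CPM in day 0 organoids and 375, 0.75 and 1570 CPM in sections, so replicate 2 was the lowest library of both groups. Replicate 2 was also the highest library for Hspa1b, Dnajb1 and Hsph1 in both groups.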
